A study of Mus musculus with 4 samples.

Results

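Whole transcriptome sequencing of mouse cortex was examined for 9 genes best known from the striatum: Drd2, Adora2a, Gpr6, Penk, Tac1, Rgs9, Adcy5, Pde10a and Ppp1r1b. They were chosen by the difference in their read counts between the 2 APPswe/PS1ΔE9 (APP) libraries, so that difference is described here without a test. The 9 genes were among 22919 features counted in the 4 libraries. The APP mice were 12-month-old males on a C57BL/6 background that carried mutant human amyloid precursor protein and presenilin transgenes, which in this line are driven by the mouse prion promoter. The wild-type (WT) mice were males of the same age with the same background in the labels, and the study's methods give them as C57BL/6J and the transgenic line as B6.Cg. There were 2 libraries per genotype, each from the cortex of a separate mouse. The APP libraries are called APP-3 and APP-4 after their columns, and WT-1 and WT-2 are the WT libraries. Values of a pair of libraries are given in the order APP-3, then APP-4, and WT-1, then WT-2.

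The striatum lies beneath the cortex, and most of its neurons are medium spiny neurons, which release GABA and receive dopamine from the midbrain. Those of the indirect pathway carry the inhibitory dopamine receptor Drd2, the adenosine receptor Adora2a, the receptor Gpr6 and the opioid precursor Penk. Those of the direct pathway carry the stimulatory dopamine receptor Drd1 and the tachykinin precursor Tac1. Both kinds share an internal machinery that sets the level of cyclic AMP and its effects, including Adcy5, Pde10a, Ppp1r1b and Rgs9. Several of these genes are also transcribed in cortical neurons.

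Total counts were 28525117 and 31392983 in the APP pair against 43881196 and 35623228 in the WT pair. App and Prnp checked the genotype labels. App was 2690 and 2390 CPM (reads scaled to an equal library size, with TMM factors) in APP-3 and APP-4 against 856 and 905 CPM in WT-1 and WT-2, and Prnp was 1860 and 1620 CPM against 526 and 535 CPM. The cortical excitatory neuron genes Slc17a7 (at least 313 CPM), Tbr1 (46.2 to 54.9 CPM) and Neurod6 (38.1 to 58.1 CPM) were counted in every library. Replicates differed beyond counting error over all features, with a chi-square per degree of freedom of 25.3 between the APP libraries and 4.59 between the WT libraries.

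All 9 genes were higher in APP-4 than in APP-3, by 1.56-fold for Tac1 to 7.25-fold for Drd2, and all passed a 1.5-fold ratio. The median log2 ratio of APP-4 over APP-3 was 1.22, beside 0.008 over all features. Of all features, 9.4% were at least 1.5-fold higher in APP-4 and 5.94% at least 1.5-fold lower, and nothing is read from the members' count since it chose them. The member at the low end was Tac1 with a log2 ratio of 0.64, and the rule that named the members set no threshold. The median log2 ratio of WT-2 over WT-1, a pair whose difference did not choose the genes, was 0.22. In bulk tissue, fewer cells of a type and less RNA per cell cannot be told apart.

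**Figure D1:**
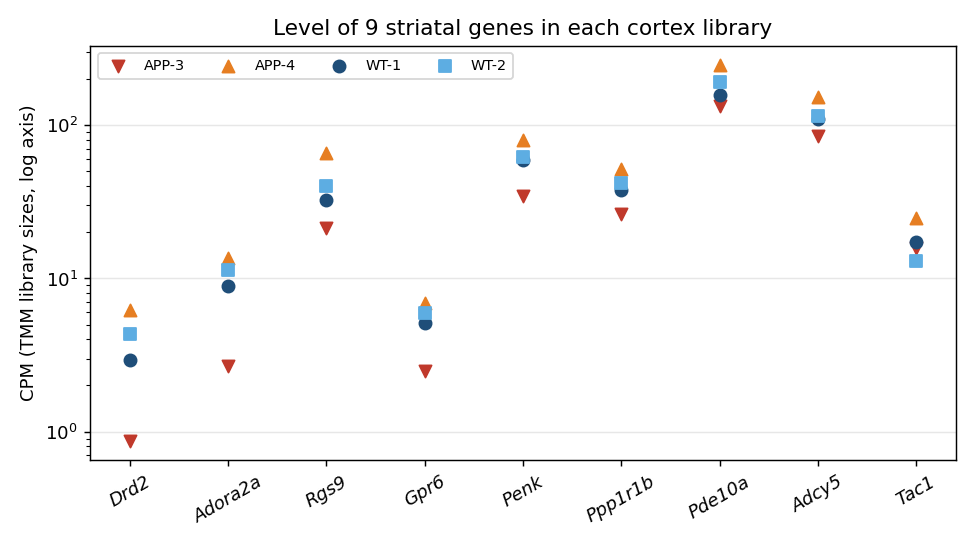
Level of each gene in CPM on a log axis, 1 point per library. APP-3 is the lowest point and APP-4 the highest for 8 of 9 genes, and for Tac1 WT-2 is the lowest.

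Promoter sequences were available for 6 of the 9 genes from RefSeq (GRCm38.p6), each covering 250 bases before to 50 bases after a transcription start, and 3 are printed here. Drd2 is shown as the gene with the largest ratio, and Gpr6 and Tac1 as those that held a half-site of the cAMP response element (CRE), TGACG on either strand, which is printed in capitals. The Drd2 window is chr9:49340153-49340452 on the plus strand, that of Gpr6 chr10:41072241-41072540 on the minus strand and that of Tac1 chr6:7554811-7555110 on the plus strand. All are written 5′ to 3′.
Drd2: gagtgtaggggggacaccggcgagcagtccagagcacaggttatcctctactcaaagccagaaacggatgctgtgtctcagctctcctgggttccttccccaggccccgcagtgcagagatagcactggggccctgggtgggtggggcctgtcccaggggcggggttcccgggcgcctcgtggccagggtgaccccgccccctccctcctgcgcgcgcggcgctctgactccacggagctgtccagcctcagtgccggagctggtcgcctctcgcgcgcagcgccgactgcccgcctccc
Gpr6: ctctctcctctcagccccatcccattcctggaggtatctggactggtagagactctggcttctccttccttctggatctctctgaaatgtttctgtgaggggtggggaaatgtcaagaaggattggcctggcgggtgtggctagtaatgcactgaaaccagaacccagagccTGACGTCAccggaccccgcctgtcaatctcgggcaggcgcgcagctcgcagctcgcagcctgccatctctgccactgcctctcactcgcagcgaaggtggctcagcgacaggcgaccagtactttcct
Tac1: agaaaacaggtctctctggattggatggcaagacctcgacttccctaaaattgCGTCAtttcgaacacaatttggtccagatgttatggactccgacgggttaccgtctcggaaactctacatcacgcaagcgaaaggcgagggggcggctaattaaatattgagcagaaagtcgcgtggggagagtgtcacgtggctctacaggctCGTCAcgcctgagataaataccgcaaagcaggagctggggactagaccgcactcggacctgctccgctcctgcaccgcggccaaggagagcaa

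The Gpr6 window held the full CRE, TGACGTCA, in which half-sites on both strands overlap, and the Tac1 window held 2 separate half-sites on the strand opposite to the one printed. Among all 32851 promoter windows of this length, 20.8% held a half-site and 1.79% the full CRE. Of the 7 windows of the 6 genes, 2 held a half-site and 1 the full CRE. The letters TATAAA, sought only on the strand of the gene, were present in the Rgs9 window and in 8.32% of all windows. G and C made up from 54.0% (Tac1) to 79.0% (Adcy5) of the 7 windows, with 70.3% for Drd2, beside a median of 52.7% over all windows.

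Of the receptors, Drd2 (chr9:49340627-49408177, GRCm38) binds dopamine and lowers cyclic AMP. It had 25 and 194 reads in APP against 129 and 153 reads in WT, or 0.864, 6.26, 2.93 and 4.31 CPM. APP-3 was below and APP-4 above both WT libraries. The ratio of APP-4 to APP-3 was 7.25, with a 95% exact binomial interval of 4.77 to 11.5 that covers counting error only. WT-2 was 1.47-fold above WT-1 (1.16 to 1.87). By log2 ratio of the APP libraries, Drd2 was the 43rd of 22919 features and the 10th of the 17637 with at least 100 counts.

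Adora2a (chr10:75316877-75334784) is the adenosine receptor that raises cyclic AMP in the same neurons. Its levels were 2.70 and 13.7 CPM in the APP pair against 8.93 and 11.4 CPM in the WT pair, from 78, 425, 393 and 405 reads. APP-3 stood apart, since both WT libraries were nearer to APP-4. The ratio of APP-4 to APP-3 was 5.09 (3.99 to 6.57), APP-3 was 0.269 of the WT mean (0.210 to 0.339) and APP-4 was 1.37 times the WT mean (1.21 to 1.54).

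Gpr6 (chr10:41069977-41072285), a constitutively active receptor that stimulates cyclic AMP and whose printed promoter window held the full CRE, was 2.49 and 6.91 CPM in APP against 5.09 and 5.92 CPM in WT. These values came from 72, 214, 224 and 210 reads. WT-2 was 1.16-fold above WT-1 (0.959 to 1.41) and APP-4 was 1.17-fold above WT-2 (0.960 to 1.42), while APP-4 was 1.27 times the WT mean (1.07 to 1.49) and APP-3 was 0.456 of it (0.350 to 0.586). APP-4 was 2.78-fold above APP-3 (2.12 to 3.68).

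Of the neuropeptide precursors, Penk (chr4:4133531-4138819) encodes the enkephalins and was 34.4 and 80.5 CPM in the APP pair against 59.6 and 61.8 CPM in the WT pair. The WT libraries differed by no more than counting error (ratio 1.04, 0.979 to 1.10), while APP-4 was 2.34-fold above APP-3 (2.17 to 2.52). The SD over the 2 APP libraries was 32.6 CPM against 1.54 CPM over the 2 WT libraries.

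Tac1 (chr6:7554879-7565834), the precursor of substance P and the only direct-pathway gene of the 9, whose printed window held the 2 half-sites, had another order. It was 15.8 and 24.8 CPM in APP against 17.4 and 13 CPM in WT, so WT-2 and not APP-3 was lowest. APP-3 and WT-1 differed by no more than counting error (ratio 1.10, 0.978 to 1.24), and APP-4 was 1.56-fold above APP-3 (1.39 to 1.76). The deposited symbol covers 1 of the 3 Tac1 transcripts. Summed over all 3, Tac1 was 20.5, 33.5, 23.0 and 17.1 CPM in the same order of libraries, with a ratio of APP-4 to APP-3 of 1.64 (1.48 to 1.81).

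Of the intracellular proteins, Rgs9 (chr11:109225355-109298129) speeds the shut-off of G proteins activated by dopamine and opioid receptors. It was 21.4 and 65.7 CPM in the APP pair against 32.5 and 40.1 CPM in the WT pair. Here APP-4 lay further from the WT mean (1.83 times it, 1.73 to 1.94) than for any other of the 9 genes, although the interval overlapped that of Drd2 (1.77, 1.46 to 2.13). The ratio of APP-4 to APP-3 was 3.07 (2.80 to 3.36).

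Ppp1r1b (chr11:98348404-98357796), an inhibitor of protein phosphatase controlled by dopamine, was 26.4 and 51.8 CPM in APP against 37.9 and 41.9 CPM in WT. Adcy5 (chr16:35154877-35305738), the main adenylyl cyclase of the striatum, was 85.1, 154, 110 and 115 CPM in the same order of libraries. Pde10a (chr17:8525372-8986648), a phosphodiesterase that breaks down cyclic nucleotides, was 133, 249, 159 and 193 CPM. These 3 genes had narrow counting intervals and the same order of libraries. APP-4 exceeded APP-3 by 1.96-fold for Ppp1r1b (1.8 to 2.14), 1.81-fold for Adcy5 (1.73 to 1.90) and 1.87-fold for Pde10a (1.8 to 1.95).

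**Figure D2:**
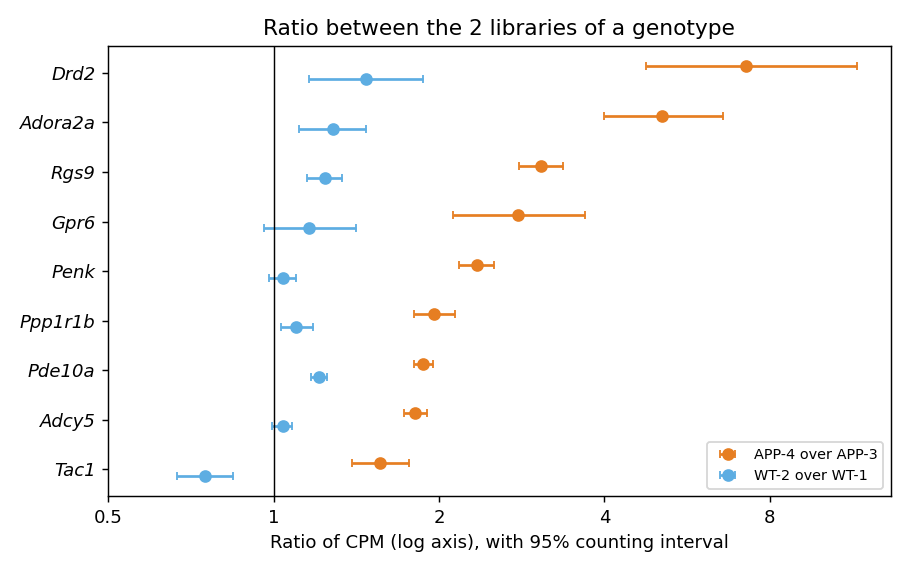
Ratio of CPM between the libraries of a genotype on a log axis, orange for APP-4 over APP-3 and blue for WT-2 over WT-1, with 95% exact binomial intervals that cover counting error only. The APP ratios run from 1.56 to 7.25 and the WT ratios from 0.75 to 1.47.

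The 4 indirect-pathway genes had ratios of 2.34 to 7.25 and a median log2 ratio of 1.89, the 4 genes of both pathways 1.81 to 3.07 and 0.94, and Tac1 0.64. Summed over the indirect-pathway genes, the level was 40.5 and 107 CPM in the APP pair against 76.6 and 83.5 CPM in the WT pair. The ranges of the classes overlap, and the difference between them was not tested. Together the 9 genes took 0.0327% and 0.0644% of counts in the APP pair against 0.0435% and 0.0484% in the WT pair.

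APP-3 was below both WT libraries and APP-4 above both for 8 of 9 genes, an order that 10.3% of all features had. APP-3 was at least 1.5-fold below the WT mean for 6 of 9 genes (Drd2, Adora2a, Gpr6, Penk, Rgs9 and Ppp1r1b), beside 6.13% of all features. APP-4 was at least 1.5-fold above the WT mean for 3 of 9 (Drd2, Rgs9 and Tac1), beside 8.98%. Over the 9 genes, the median log2 ratio to WT was −0.75 for APP-3 and 0.46 for APP-4. Both comparisons share the WT libraries and both entered the choice of the genes, so these are descriptions.

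Between the WT libraries, 0 of 9 genes passed a 1.5-fold ratio, while 11.2% of all features did. WT-2 was the higher for 8 of 9 genes, and for 3 of them (Penk, Gpr6 and Adcy5) the interval of the ratio held 1. Tac1 alone was lower in WT-2, at 0.75 of WT-1 (0.667 to 0.843). With 1 library on each side, no test of this comparison was made.

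Differences among the genes in abundance can be read only per length. On the scale of CPM per kilobase, summed over transcripts of the deposited symbol, Penk (42.0 and 43.7 in WT-1 and WT-2) and Pde10a (35.7 and 43.6) were highest. Their WT values overlapped. Ppp1r1b followed at 19.1 and 21. Adcy5 at 15.8 and 16.3, Tac1 at 17.8 and 13.3 and Rgs9 at 12.9 and 16.1 overlapped one another. The Tac1 value rests on 1 of its 3 transcripts and is too low for the whole gene, so its place among the genes is not settled. The indirect-pathway receptors were lowest, with Adora2a at 3.44 and 4.4, Gpr6 at 2.85 and 3.31 and Drd2 at 1.15 and 1.69, without overlap between neighbours.

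Transcripts of the 9 genes were also followed one by one. By identifier the genes had 24 transcripts in the data, of which 20 had at least 10 counts in every library. Of these 20, 19 were higher in APP-4 than in APP-3, 15 by at least 1.5-fold, and 16 had an interval above 1. Most of these transcripts make up the sums that chose the genes, so their direction was largely set by that choice. Shares over all transcripts were not computed. The exception in direction was a minor coding form of Pde10a, at 2.11 and 1.52 CPM in the APP pair (ratio 0.720, 0.481 to 1.07). The 2 main coding forms made up most Pde10a reads (34.3% and 51.6% in APP-3) and were 1.92-fold (1.79 to 2.05) and 2.02-fold (1.91 to 2.13) higher in APP-4. The 3 most abundant forms of Rgs9, all coding, were 2.89-fold, 3.54-fold and 3.47-fold higher in APP-4. The main Penk transcript, with 96.5% and 97.2% of Penk reads in the APP pair, was 2.36-fold higher (2.19 to 2.54).

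Exons of 2 of the genes overlap exons of another gene on the opposite strand, and whether counting used strand is not given in the sources used here. A830012C17Rik overlaps Penk by 157 bases and had 5 and 12 reads in APP against 1 and 1 reads in WT. 1700003D09Rik overlaps Ppp1r1b by 215 bases and has no transcript in the data, which keep only transcripts with at least 10 reads. The A830012C17Rik counts are small beside the 996 to 2625 reads of Penk. For 1700003D09Rik no count can be set beside the 765 to 1669 reads of Ppp1r1b.

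The comparison the study was designed for, APP against WT, called 0 of the 9 genes. Cut-offs were a fold change of 1.5 and a false discovery rate of 0.05 in edgeR's quasi-likelihood test, adjusted by the Benjamini-Hochberg method over all features, and 225 features or 0.982% passed. None of the 9 had an unadjusted p under 0.05 (0 of 9), and DESeq2, edgeR's exact test and edgeR's likelihood ratio test also called 0. Of the log2 fold changes 5 were negative and 4 positive. The genes were selected on a difference within the APP group, which widens the spread in this test, so missing the cut-offs does not show that the genotypes had equal levels.

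Drd2 averaged 3.56 ± 3.82 CPM in APP and 3.62 ± 0.977 CPM in WT (SD, n = 2 each), a log2 fold change of −0.0012 with a standard error of 0.58. Its adjusted p in edgeR's quasi-likelihood test was 1.0. Penk averaged 57.4 ± 32.6 CPM in APP and 60.7 ± 1.54 CPM in WT, and its log2 fold change was −0.08 (SE 0.27, edgeR adjusted p = 0.960). The group means nearly coincided although neither APP library was near its mean. Tac1 had the lowest edgeR adjusted p of the 9, 0.471, with a log2 fold change of 0.41 (SE 0.19) from 20.3 ± 6.31 CPM in APP and 15.2 ± 3.08 CPM in WT. For Rgs9 the log2 fold change was 0.27 (SE 0.36, edgeR adjusted p = 0.867), and for Adora2a −0.30 (SE 0.48, edgeR adjusted p = 0.90). The other 4 genes had log2 fold changes from −0.22 (Gpr6) to 0.12 (Pde10a). For every gene the SD over the APP libraries exceeded that over the WT libraries, by 2.05 times for Tac1 to 21.2 times for Penk, a direction that the choice of the genes favoured.

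The sign of the comparison depended on which APP library entered it. With APP-3 left out, the lone APP library being assumed to vary like WT, all 9 log2 fold changes were positive (0.33 for Gpr6 to 0.85 for Rgs9) and 3 of 9, Drd2, Tac1 and Rgs9, passed both cut-offs, beside 3.19% of all features in the same fit. With APP-4 left out, 8 were negative (−0.40 for Adcy5 and Pde10a to −2.05 for Drd2), Tac1 was at 0.05, and 6 of 9 passed (Drd2, Adora2a, Penk, Gpr6, Ppp1r1b and Rgs9), beside 2.54% of all features. These fits reuse the libraries that chose the genes and describe how much each library carried.

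Other genes of striatal neurons were taken as a list of 26, of which 25 were counted and Gpr52 was not analysed. Their median log2 ratio of APP-4 over APP-3 was 0.93, and 24 of 25 were higher in APP-4. At least 1.5-fold higher were 18 of 25, or 72.0%, beside the 9.4% of all features. This list did not enter the rule, but it was drawn up with the pattern known, and its genes come from the same libraries as the 9. In the APP against WT comparison 0 of 25 passed both cut-offs in edgeR's quasi-likelihood test, and 2 had an unadjusted p under 0.05. The share of all features under that p was not computed.

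Direct-pathway genes were among those that were higher in APP-4. Drd1, the stimulatory dopamine receptor, was 33.8 and 58.2 CPM in the APP pair against 44.8 and 36.6 CPM in the WT pair (APP ratio 1.72, 1.59 to 1.86). Pdyn, the dynorphin precursor, was 12.0, 24.7, 23.7 and 18.2 CPM in that order, and Isl1, a transcription factor of direct-pathway and cholinergic neurons, 0.622, 2.58, 0.954 and 0.789 CPM. APP-3 was lowest and APP-4 highest for all 3, with APP-4 close to WT-1 for Pdyn.

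Rasd2, a small GTPase, was 20.1 and 40.2 CPM in APP against 29.1 and 32.9 CPM in WT. Scn4b, a sodium channel subunit, was 60.1, 108, 90.7 and 109 CPM in the same order of libraries. APP-4 was the highest library for Rasd2, while for Scn4b it was level with WT-2. The highest ratio of the list was that of Syndig1l, which was 1.59 and 8.04 CPM in the APP pair against 3.07 and 4.96 CPM in the WT pair (APP ratio 5.06, 3.68 to 7.08).

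The lowest was that of Chrm4, a muscarinic receptor, at 11.2 and 10.7 CPM in the APP pair against 13.4 CPM in both WT libraries (ratio 0.957, 0.819 to 1.12). Arpp21, a cAMP-regulated phosphoprotein also abundant in cortex, was named after its values were seen. It was 106 and 128 CPM in APP-3 and APP-4 against 165 and 160 CPM in WT-1 and WT-2, and its log2 fold change of −0.48 (SE 0.09, edgeR adjusted p = 0.0280) was below the cut-off for size. The deposited symbol covers 2 of the 22 Arpp21 transcripts in the data, so these values do not describe the whole gene. In all, 20 of the 25 genes had APP-3 lowest and APP-4 highest, an order that 10.3% of all features had.

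**Figure D3:**
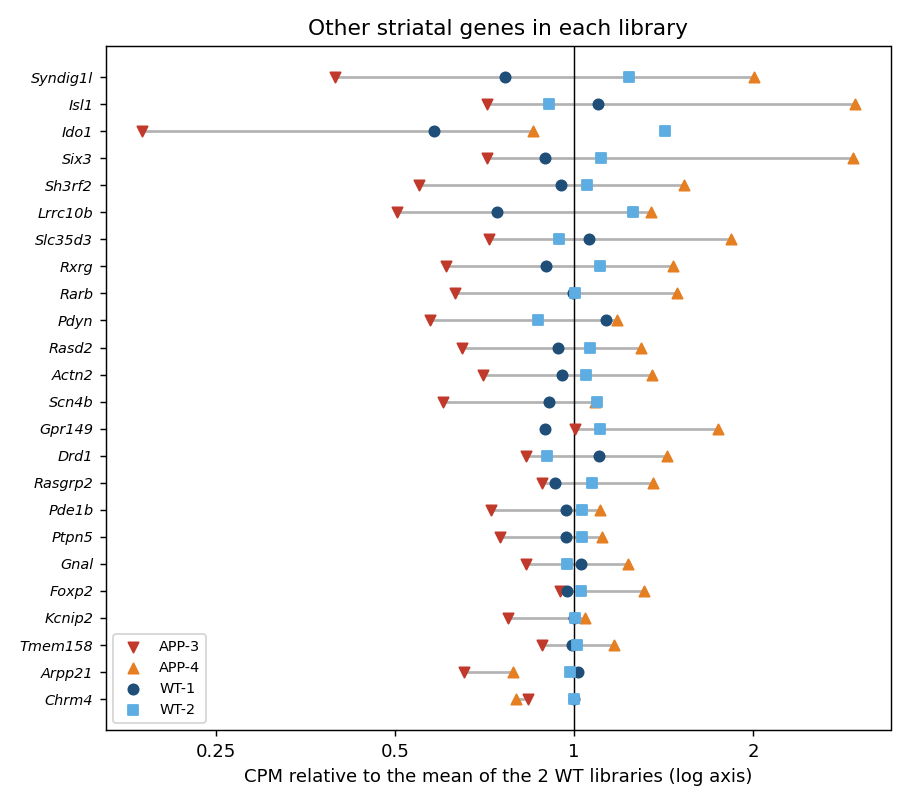
Level of 24 of the 25 other striatal genes relative to the mean of the WT libraries, on a log axis, 1 symbol per library, with a grey line joining APP-3 and APP-4. APP-3 lies left of APP-4 for every gene plotted other than Chrm4.

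Signalling partners of the 9 genes served as a second list of 20, all counted. Their median log2 ratio of APP-4 over APP-3 was 0.04. Of these 20, 2 were at least 1.5-fold higher in APP-4, beside 9.4% of all features. At least 1.5-fold lower was 1 of 20, beside 5.94% of all features. Counts this small do not set the partners apart from all features. The higher ones were Gng7, a G protein subunit that couples receptors to adenylyl cyclase in striatum, and Tacr1, the receptor of substance P. Gng7 was 24.1 and 51.3 CPM in APP-3 and APP-4 against 29.7 and 31.3 CPM in WT. Tacr1 was 3.97 and 7.13 CPM against 4.43 and 3.41 CPM in the same order. Drd5, a dopamine receptor of cortex and hippocampus, was at least 1.5-fold lower, at 1.56 and 0.581 CPM in the APP pair (45 and 18 reads) against 1.5 and 1.92 CPM in WT. The other 17 partners, among them kinase and phosphatase subunits, opioid receptors and peptide-processing enzymes, stayed within 1.5-fold. In the APP against WT comparison 0 of 20 passed both cut-offs in edgeR's quasi-likelihood test, and 8 had an unadjusted p under 0.05. The share of all features under that p was not computed, so nothing is read from this count.

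Profiles most like that of the 9 genes were sought among 16515 genes and unnamed transcripts with a mean of at least 1 CPM, by the distance of the centred log2 levels over the 4 libraries. The median profile of the 9 was −0.71 and 0.52 in APP against 0.01 and 0.13 in WT. Closest were Gm13212 (deposited as Gm13157), Rarb, Bend7, Myo3b, Gm26673, Rxrg, Sh3rf2, Rasd2, a transcript of Wdfy3 and Gm13315, at distances of 0.14 to 0.18, beside a median distance of 0.92. Of these 10, Rarb, Rxrg, Sh3rf2 and Rasd2 are in the list of other striatal genes. Rarb, a retinoic acid receptor, was 7.84 and 18.5 CPM in the APP pair against 12.4 and 12.5 CPM in the WT pair. Likeness over 4 libraries is a description, and 6 of the 10 had under 100 reads in each library.

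Markers of other cells and regions moved between the APP libraries in several ways. Their part in the differences of the 9 genes was not tested. Markers of cholinergic neurons, a class found in striatum and basal forebrain, were all higher in APP-4 (3 of 3, median log2 ratio 1.84). Their summed level was 5.32 and 18 CPM in APP against 7.61 and 6.29 CPM in WT. The highest ratio was that of the vesicular transporter Slc18a3, on 4 and 29 reads in APP-3 and APP-4, and the lowest that of the synthetic enzyme Chat, on 35 and 83 reads. No cholinergic marker was at 0 in any library.

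Cortical projection neuron markers were lower in APP-4 for 10 of 12 (median log2 ratio −0.18), from −0.61 for Neurod6 to 0.10 for Rorb. Their summed level ran from 1590 CPM in APP-4 to 1830 in WT-1, with 1630 in APP-3. Oligodendrocyte markers were lower in APP-4 for 9 of 9 (median −0.30, from −0.39 for Opalin to −0.15 for Mbp), with sums of 1690 and 1470 CPM in the APP pair against 1090 and 1220 CPM in the WT pair. Both lists thus differed between the APP libraries in the direction opposite to the 9 striatal genes.

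Interneuron markers had a median log2 ratio of −0.13 and ran from −0.88 for Cort to 0.53 for Lhx6. Of the 9, 4 were higher in APP-4, and 5 (Pvalb, Sst, Vip, Npy and Cort) were lower. Gad1, Gad2 and Slc32a1, named after their values were seen, were 1.27-fold, 1.33-fold and 1.33-fold higher. Gad1 and Gad2 carried most of the reads of the list, so its sum mainly follows them. The sum was 509 and 614 CPM in APP against 609 and 571 CPM in WT. It was lowest in APP-3 and highest in APP-4, which was close to WT-1. Astrocyte markers had a median of 0.15 (−0.10 for Aldh1l1 to 0.33 for Gja1) and sums of 4190, 4520, 3720 and 3360 CPM in that order. Microglial markers had a median of 0.30 (0.08 for Cx3cr1 to 0.63 for Tmem119) and sums of 203, 248, 136 and 137 CPM. Astrocyte and microglial sums were thus higher in both APP libraries than in both WT libraries.

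Of the neighbouring regions, thalamic markers (9 of 10 counted) had a median log2 ratio of 0.06, from −0.78 for Rgs16 to 0.56 for Tcf7l2, and summed to 76.8 and 71.3 CPM in the APP pair against 59.0 and 58.7 CPM in the WT pair. Hippocampal markers (7 of 7) had a median of 0.04, from −0.88 for Dsp to 0.48 for Spink8, and sums of 56.9, 48.3, 58.0 and 58.2 CPM. Choroid plexus markers (5 of 8) had a median of −0.28, from −1.44 for Ttr to 1.27 for Clic6, and sums of 5.75 to 7.95 CPM. None of these lists was ordered like the striatal genes.

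Of the hypothalamic markers (12 of 16 counted), 6 passed both cut-offs in the APP against WT comparison by edgeR's quasi-likelihood test. All 6 were higher in APP than in WT. Of all features, 0.982% passed in either direction. The 12 markers summed to 28.0 and 33.9 CPM in APP against 12.4 and 8.99 CPM in WT, and Avp, Oxt and Sim1 were each at 0 in 1 WT library. Between the APP libraries their median log2 ratio was 0.33, from −1.60 for Pmch to 2.30 for Avp. Both APP libraries held more of these reads than either WT library, whereas the striatal genes were low in APP-3 and high in APP-4.

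**Figure D4:**
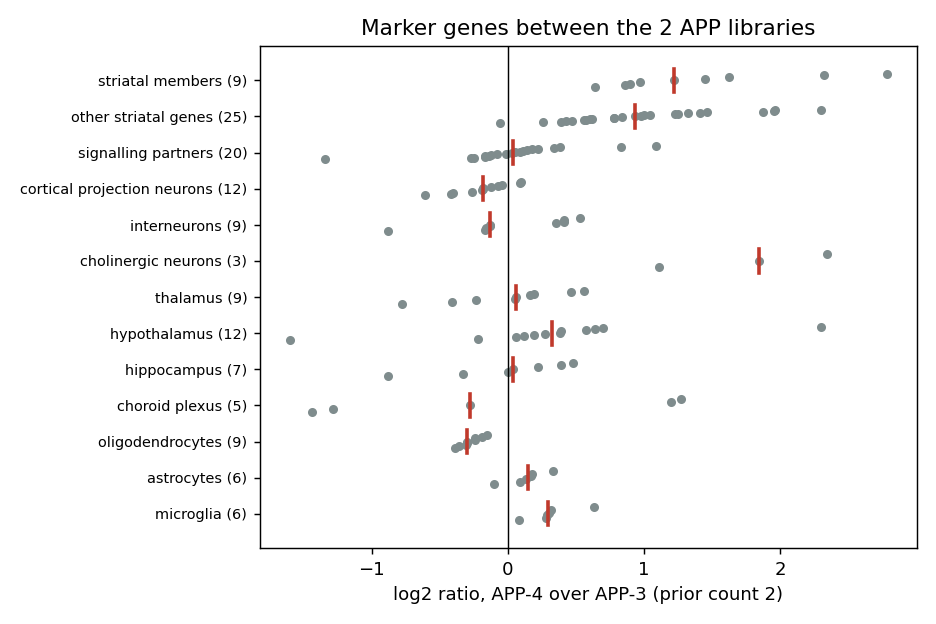
Log2 ratio of APP-4 over APP-3 for each gene (grey points) by list, with the median of each list as a red line and the number of genes counted in brackets. The medians are 1.22 for the 9 striatal genes, 0.93 for the other striatal genes and 1.84 for cholinergic neurons, and between −0.30 and 0.33 for the other lists.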

How the data were processed

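Cortex RNA of 2 APP and 2 WT mice was depleted of ribosomal RNA, sequenced strand-specifically and aligned by the authors with FANSe2 to Ensembl mouse RNA, keeping transcripts with at least 10 reads. The Ensembl release is not given in the sources used here. The labels' processing notes name CASAVA 1.8, edgeR and hg19, a human build not used here. The values used were the deposited counts of reads per transcript, made by the authors without normalization. The table also holds the authors' log2 fold change, mean log2 CPM, p-value and FDR, and 4 per-library columns, none of which was used. Sample numbers in the titles identify the WT columns, while the numbers of the APP columns are in no title and show the group alone.

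The members and lists were chosen with earlier results of these data known. Counts of the 37539 transcripts were summed per deposited symbol, ignoring case (exact spelling matched 2 of the 9 members), and the 8274 transcripts with no symbol stayed single. A list gene without a matching symbol was read through its identifier in GENCODE M21 (GRCm38), which held 98.15% of transcripts, and may then rest on 1 transcript. A matching symbol can also cover only part of a gene's transcripts, such as 1 of 3 for Tac1, 1 of 2 for Isl1 and 2 of 22 for Arpp21. All 9 members passed the filter of 10 counts over the libraries.

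Tests ran in edgeR 4.0.16 under R 4.3.3 (trimmed mean of M-values, TMM, scaling, quasi-likelihood test, no covariate, Benjamini-Hochberg adjustment over 22919 features, a fold change of at least 1.5 and an FDR under 0.05) with DESeq2 1.42.0 as an alternative tool, and intervals came from scipy 1.17.1 under Python 3.11.15. On simulated counts of the same size for APP against WT, 99% of features changed 2-fold were called, 100% of those changed 4-fold, and 9 of 22710 unchanged features. The simulation used the same fixed dispersion for every feature and both genotypes, and placed changes only on well-counted features. It leaves out the wider spread within the APP pair, so these shares do not apply to the 9 genes. Log2 levels used a prior count of 2, and ratios of CPM have exact (Clopper-Pearson) intervals for counting error only. An exact two-sided permutation test of 2 against 2 libraries cannot go below p = 0.333. The reads carry no molecular identifiers. Genes named in the text were all members, preset genes of the other striatal list, partners past 1.5-fold, the 10 nearest profiles, and the highest and lowest gene of each list, unless stated. Alternatives were other tests, scalings, filters, folds and prior counts, protein-coding transcripts only, and leaving out each library, and grouping by GENCODE gene was added after seeing the data. Some genes of the lists are not reported here by name.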

Additional observations from a re-analysis of the deposited data

How the results depend on the processing

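No paired analysis was possible because the APP columns carry the numbers 3 and 4, which are in no sample title, so no pairing with the WT columns could be formed. The count of features called between APP and WT, 225, was 397 with edgeR's exact test, 443 with edgeR's likelihood ratio test and 131 at a fold change of 2. It was 162 when transcripts were grouped by GENCODE M21 gene, and from 184 to 732 when each library was left out in turn, with 732 without APP-3 and 582 without APP-4. The count of striatal members called was 0 under every alternative other than leaving out a library, and from 0 to 6 then, with 3 without APP-3 and 6 without APP-4. The log2 fold change of APP over WT without each library in turn ranged from −2.05 to 0.80 for Drd2, −1.91 to 0.43 for Adora2a, −0.82 to 0.40 for Penk, −1.14 to 0.33 for Gpr6, 0.05 to 0.69 for Tac1, −0.59 to 0.37 for Ppp1r1b, −0.76 to 0.85 for Rgs9, −0.40 to 0.50 for Pde10a and −0.40 to 0.45 for Adcy5. For Drd2 it changed from −0.0012 to 0.0048 with protein-coding transcripts only, where the scaling rests on fewer features. At a ratio of 2 in place of 1.5 between APP-4 and APP-3, 5 of 9 members and 10 of 25 other striatal genes passed. The share of all features past a ratio of 2 was not computed, so nothing is read from these 2 counts. Among features with at least 100 counts, 4.37% were 1.5-fold higher in APP-4, against 9.4% of all. The median log2 ratio of APP-4 over APP-3 stayed from 1.18 to 1.24 over the members and from 0.89 to 0.95 over the other striatal genes under the scalings, prior counts and groupings tried. With 2 libraries per genotype and the members chosen on the APP pair, differences within a genotype have no replicate, and intervals at low counts such as the 25 Drd2 reads of APP-3 are wide.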
